A study of Mus musculus with 12 samples.

Results

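The comparison described here is that of CD11c+ interstitial macrophages (IMs) labelled Il9r-/- with those labelled WT, and rests on 4 of the 12 RNA-Seq libraries of the series. They were chosen by their titles, 2 libraries for each label, numbered 1 and 2. All mice were C57BL/6 and carried B16, a mouse melanoma line given into the vein that grows in the lung. Lung macrophages were gated as live MerTK+ CD64+ cells and split by SiglecF and CD11c into alveolar macrophages (AMs), CD11c+ IMs and CD11c- IMs, and the other 8 libraries hold AMs and CD11c- IMs of the same labels. The WT mice were purchased and the Il9r-/- mice were a gift from another laboratory, so the receptor label and the origin of the mice cannot be told apart. The study reported much less B16 growth in the lungs of Il9r-/- mice, so the label and the tumor load cannot be told apart either. The sources used here do not say how many mice gave each library, and p-values measure the spread between libraries, which may be partly technical. Of 14648 genes in the table, 487 on chromosomes X and Y were left out, and 14161 autosomal genes were compared.

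IL-9 is a cytokine of helper T cells, innate lymphoid cells and mast cells. Its receptor pairs the chain encoded by Il9r with the common gamma chain, and signals through the kinases JAK1 and JAK3 to STAT transcription factors. Interstitial macrophages lie in the lung tissue between airspace and vessel, and are known for antigen presentation and for Arg1, an enzyme that breaks down arginine and marks alternatively activated macrophages. The study asked how macrophages of tumor-bearing lungs differ when the receptor is missing.

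Il9r itself went against the labels. Il9r (chr11:32188997-32200279 in mm10, minus strand) stood at 0.158 and 0.495 counts per 1000000 reads, scaled by TMM (CPM), in the WT libraries 1 and 2, and at 4.34 and 4.19 CPM in the libraries 1 and 2 labelled Il9r-/-, which corresponds to 6 and 13 reads against 148 and 154. The labels did not overlap, and the libraries labelled as lacking the receptor held the higher level. Its log2 fold change was 3.73 (SE 1.03, n = 2 and 2, edgeR adjusted p = 0.807). In AMs, Il9r stood at 0.627 and 0.326 CPM against 6.60 and 6.82 CPM, again higher under the label Il9r-/-. In CD11c- IMs the labels overlapped, with 0.750 and 6.47 CPM in WT and 2.59 and 6.09 CPM in the libraries labelled Il9r-/-. The counts sum reads over all exons of a gene, so an intact and a shortened transcript cannot be told apart. Every direction given here is therefore that of the library labels, with the libraries labelled Il9r-/- over the libraries labelled WT.

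The library depth was 26988617 to 42020021 counted reads over the 12 libraries, and the spread between libraries of a group was a biological coefficient of variation of 0.382 in edgeR's common estimate. In log2 CPM the most alike pair of the 4 libraries was WT library 2 with library 2 labelled Il9r-/- (Pearson r across genes 0.967), against 0.963 between the WT libraries and 0.949 between the libraries labelled Il9r-/-. Xist, transcribed in female cells, stood at 24.2 CPM in WT library 1 and at 0, 0 and 0.0272 CPM in the other libraries. Ddx3y of chromosome Y stood at 0.105 CPM in that library and at 58.7 to 94.4 CPM in the others, so WT library 1 differed from the rest in sex as well. The genes of the sort gate were present in all 4 libraries. Itgax, the gene of CD11c, stood at 424 and 334 CPM in WT and at 437 and 302 CPM in the libraries labelled Il9r-/-, above the CD11c- IMs at 27.9 to 54.1 CPM, and Fcgr1, the gene of CD64, at 159 and 95.7 against 121 and 63.5 CPM. Mertk stood at 151 and 110 CPM in WT, and at 204 and 59.8 CPM under the label Il9r-/-, where the 2 libraries enclosed both WT values.

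Few single genes separated the labels beyond the spread between libraries. At an adjusted p under 0.05 in edgeR's quasi-likelihood test, 1 of 14161 genes was called (0.00706%), Dynlt1b, which was lower, and 0 genes were higher. At an unadjusted p under 0.05 there were 544 genes (3.84%). The Wald test of DESeq2 on the same libraries called 89 genes (0.628%), 58 higher and 31 lower. Many genes given below with an edgeR adjusted p above 0.05 are thus called or not depending on the test. Among those that DESeq2 called were Fgf1, Nnt, Fbp1, Gdf3, Ccl24, Fabp1, Ffar2, Egfl7, Cldn5 and Tmem100. Arg1, Dct, Ifit2 and Ero1l were among those that neither test called. A looser rule, an unadjusted p under 0.05 with an absolute log2 fold change above 1, was met by 458 genes (3.23%), 237 higher (1.67%) and 221 lower (1.56%). For 3584 genes (25.3%) the 2 libraries of each label did not overlap. Without WT library 1 the looser rule was met by 264 genes, and without library 2 labelled Il9r-/- by 705. Without any 1 of the 4 libraries edgeR called 0 genes at an adjusted p under 0.05, and the adjusted p of Dynlt1b was then 0.0787 to 0.316.

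**Figure D1:**
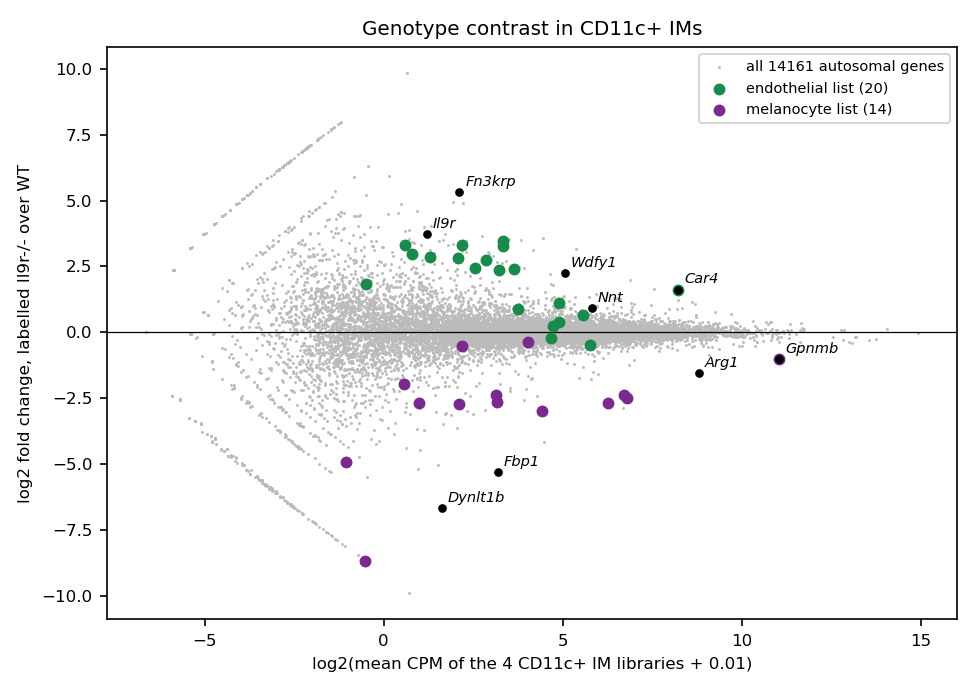
Each point is 1 of 14161 autosomal genes, with the mean level in the 4 CD11c+ IM libraries on the x axis (log2 of CPM plus 0.01) and the log2 fold change of libraries labelled Il9r-/- over WT on the y axis. Members of the endothelial list (green) lie mostly above 0 and those of the melanocyte list (purple) below it, named genes are in black, and the outermost straight rows of points at the left are genes without a read in 1 label.

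Dynlt1b (chr17:6430112-6436295), a light chain of the motor protein dynein, fell in the libraries labelled Il9r-/-. It stood at 5.45 and 6.74 CPM in WT and at 0.0293 and 0.0816 CPM in the libraries labelled Il9r-/-, where library 1 held 1 read and library 2 held 3. The log2 fold change was -6.68 (SE 0.66, n = 2 and 2, edgeR adjusted p = 0.0396). Tmem181b-ps, a pseudogene 11.8 kb from it, stood at 5.32 and 5.86 CPM in WT and at 0 and 0.326 CPM in the libraries labelled Il9r-/- (log2 fold change -5.05, SE 1.06, edgeR adjusted p = 0.483). Near-identical copies of both lie on the same chromosome, so the split of reads between copies is uncertain. The copies Dynlt1a and Tmem181a differed by log2 -0.10 (SE 0.43) and -0.11 (SE 0.34), with overlapping libraries. The same pair was low in AMs labelled Il9r-/-, where Dynlt1b fell by 6.97 on the log2 scale (edgeR adjusted p = 0.0176).

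Wdfy1 and Fn3krp came next in order of p and did not pass in edgeR, while DESeq2 called both (adjusted p = 1.31e-11 for each). Wdfy1 (chr1:79702262-79761769), an endosomal adaptor of Toll-like receptors, stood at 12.5 and 10.5 CPM in WT and at 62.3 and 47.4 CPM in the libraries labelled Il9r-/-, without overlap (log2 fold change 2.25, SE 0.26, edgeR adjusted p = 0.0693). Fn3krp (chr11:121421373-121430768), a kinase that removes sugar adducts from proteins, stood at 0.158 and 0.267 CPM against 9.97 and 6.83 CPM (log2 fold change 5.31, SE 0.64, edgeR adjusted p = 0.0693). In AMs, where edgeR called 3 genes (0.0212%), 2 of them higher (0.0141%), both rose, with log2 fold changes of 2.78 for Wdfy1 (edgeR adjusted p = 0.0176) and 5.93 for Fn3krp (edgeR adjusted p = 0.0366). In CD11c- IMs the values were 0.79 for Wdfy1 and 4.15 for Fn3krp, neither past the adjusted threshold. Fgf1, a growth factor of the fibroblast growth factor family, stood at 0.211 and 0.0762 CPM in WT and at 4.37 and 2.99 CPM in the libraries labelled Il9r-/- (edgeR adjusted p = 0.0793). In contrast to Wdfy1 and Fn3krp, its AM libraries were no higher under the label Il9r-/-, at 10.3 and 8.58 CPM in WT and 4.43 and 5.35 CPM in the others. Nnt, the mitochondrial transhydrogenase that supplies NADPH and that is known to be disrupted in 1 of the C57BL/6 substrains, stood at 40.0 and 37.8 CPM in WT and at 77.4 and 69.0 CPM in the libraries labelled Il9r-/-. This is a log2 fold change of 0.91 (SE 0.22, unadjusted p = 0.00238, edgeR adjusted p = 0.602), and the order was the same in AMs, at 79.2 and 67.8 against 112 and 108 CPM. The labels do not give the substrain, and its part in these values was not tested. Dynlt1b, Tmem181b-ps, Fn3krp and Fgf1 were named after their values were seen.

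**Figure D2:**
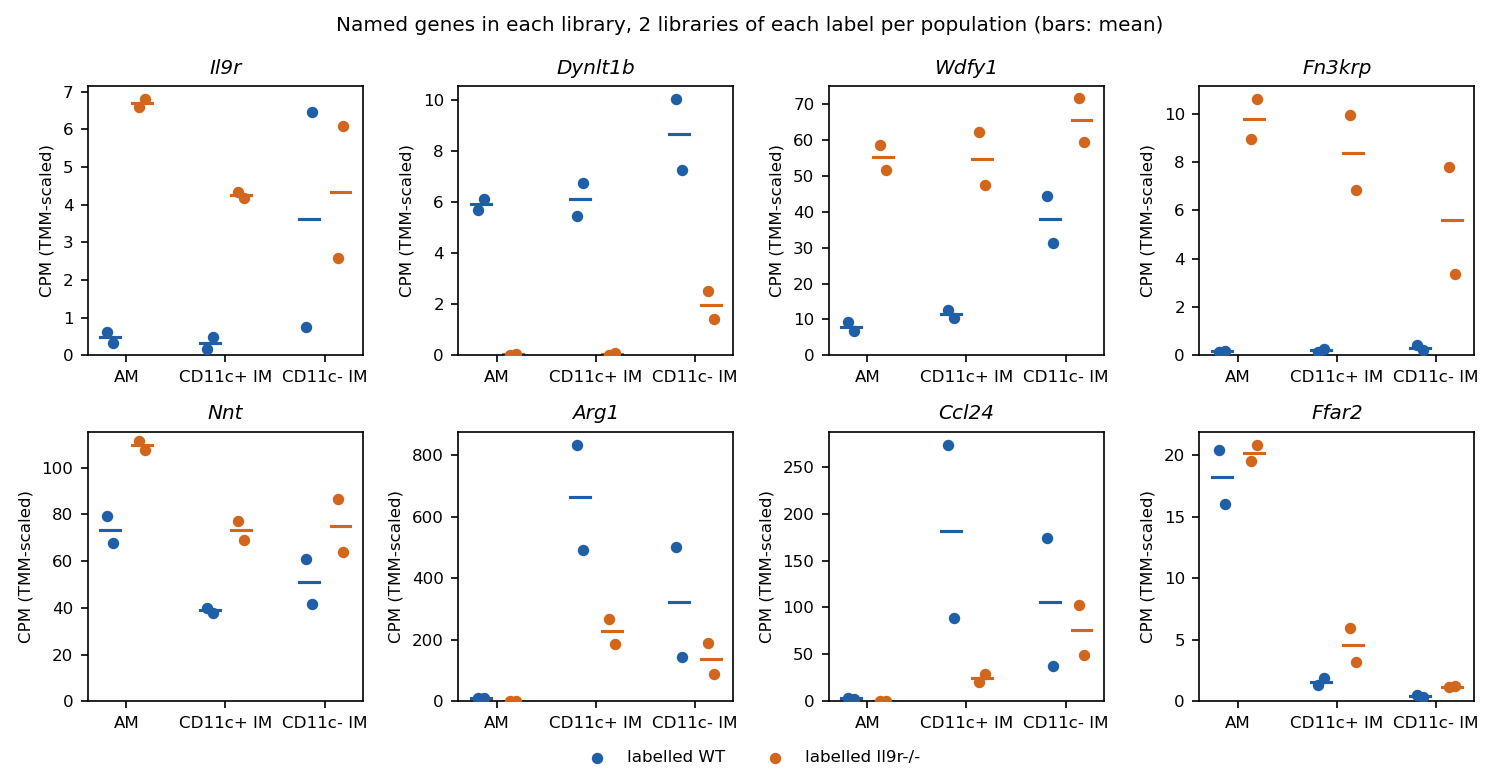
CPM (y axis, linear, from 0) of 8 genes in all 12 libraries, with WT in blue and the libraries labelled Il9r-/- in orange for AMs, CD11c+ IMs and CD11c- IMs, and a bar at the mean of each 2 libraries. Dynlt1b, Wdfy1 and Fn3krp separate the labels in all 3 populations, while Il9r overlaps in CD11c- IMs and Arg1 does so as well.

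Genes around Il9r showed no common direction. Within 10 Mb on either side of Il9r, 64 other genes were tested, with a median log2 fold change of -0.08, against 0.01 over all autosomal genes. By the looser rule 0 of these genes were higher, beside 1.67% of all genes, and 2 were lower, Hba-x and D630024D03Rik, beside 1.56%. Both lie among the 16 other genes tested within 1 Mb of Il9r. Of these 16 genes, 3 were higher and 5 lower without overlap, beside 13% and 12.3% of all genes. Ubtd2, 292 kb from Il9r, stood at 4.27 and 4.49 CPM in WT and at 9.06 and 8.00 CPM under the other label. Its log2 fold change of 0.96 (SE 0.35) fell short of the looser rule. Of the 64 genes 0 passed the adjusted threshold of edgeR. Hba-x, an embryonic alpha globin 82.7 kb from Il9r, stood at 3.50 and 2.74 CPM in WT and at 0.703 and 0.762 CPM in the libraries labelled Il9r-/-. D630024D03Rik had 21 reads over the WT libraries and 0 over the others, at least 7.72-fold lower. Snrnp25, the nearest tested gene, differed by log2 0.24 (SE 0.19). Hbb-y, an embryonic beta globin on another chromosome, was also lower, at 23.6 and 14.5 CPM in WT against 4.07 and 4.16 CPM. Neither globin was lower in the other populations. The log2 fold changes in CD11c- IMs and AMs were 0.44 and 0.71 for Hbb-y, and 0.12 and 0.51 for Hba-x.

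Arg1 was lower in both libraries labelled Il9r-/-, by the looser rule only. Arg1 (chr10:24915207-24927470) stood at 835 and 492 CPM in WT and at 269 and 188 CPM in the libraries labelled Il9r-/-, so that the labels did not overlap. Its log2 fold change was -1.54 (SE 0.56, n = 2 and 2, unadjusted p = 0.0231, edgeR adjusted p = 1). Without WT library 1, the higher of the WT libraries, it was -1.11 (unadjusted p = 0.131), and without library 2 labelled Il9r-/- it was -1.30 (unadjusted p = 0.115). In CD11c- IMs Arg1 stood at 503 and 143 CPM in WT and 188 and 89.3 CPM under the other label, with overlap. In AMs the level was far lower but the labels did not overlap, at 11.5 and 10.1 CPM in WT against 1.33 and 1.83 CPM, a log2 fold change of -2.78 (SE 0.62, unadjusted p = 0.00151, edgeR adjusted p = 0.704). The difference between the populations had an unadjusted p of 0.161. Of the 15 tested genes of arginine and polyamine metabolism, Arg1 alone was lower by the looser rule, beside 1.56% of all genes. Of this list 0 were higher, and the median was -0.13. Arg2, the mitochondrial arginase, stood at 17.2 and 28.8 CPM in WT and at 15.7 and 32.7 CPM in the libraries labelled Il9r-/-. Odc1, which makes the first polyamine from the product of arginase, stood at 139 and 142 against 114 and 130 CPM, a log2 difference of -0.20 (SE 0.14).

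Among 24 markers of alternative activation, Arg1 and Ccl24 were lower by the looser rule, beside 1.56% of all genes, 0 were higher, and the median was -0.29. Ccl24, the chemokine eotaxin-2, stood at 273 and 88.7 CPM in WT and at 20.8 and 28.9 CPM in the libraries labelled Il9r-/- (log2 fold change -2.86, SE 0.74, unadjusted p = 0.00376, edgeR adjusted p = 0.709). Without WT library 1, whose level was the highest, the value was -1.83. Of the 24 log2 values 6 were positive, beside 51% of all genes, and 18 were negative. Chil3, a chitinase-like protein and the most abundant member, stood at 9181 and 10746 CPM in WT and at 14418 and 3262 CPM in the libraries labelled Il9r-/-, and Retnla at 528 and 676 against 438 and 917 CPM. Spp1, osteopontin, stood at 4765 and 3285 against 3610 and 1297 CPM, a log2 value of -0.71 (SE 0.62) with overlap, and Gpnmb, a glycoprotein of phagocytes, had a log2 value of -1.01 (SE 0.62), also with overlap. For Chil3 the 2 libraries labelled Il9r-/- lay further apart than either did from WT. Fbp1, fructose bisphosphatase of gluconeogenesis, was among the largest differences of well-measured genes, at 19.6 and 16 CPM in WT and at 0.762 and 0.136 CPM in the libraries labelled Il9r-/- (log2 fold change -5.30, SE 1.04, unadjusted p = 0.000857, edgeR adjusted p = 0.483). In AMs it stood at 3.38 and 3.94 CPM in WT and at 0.183 and 0.288 CPM under the other label, and in CD11c- IMs at no more than 1.07 CPM. Gdf3, a ligand of the TGF-beta family made by macrophages, stood at 68.9 and 15.2 CPM in WT and at 2.52 and 2.23 CPM in the others (log2 fold change -4.15, SE 0.92, edgeR adjusted p = 0.483), and without WT library 1 the value was -2.68.

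Genes of lipid handling held 4 of 29 members higher by the looser rule, beside 1.67% of all genes, and 0 lower, with a median of 0.12. Fabp1, a fatty acid binding protein, stood at 10.3 and 7.58 CPM in WT and at 63.1 and 20.1 CPM in the libraries labelled Il9r-/- (log2 fold change 2.21, SE 0.47, edgeR adjusted p = 0.483). Acaa1b, a peroxisomal thiolase, stood at 10.7 and 11.8 against 62.2 and 17.7 CPM, and Cidec, a lipid droplet protein, at 35.8 and 29.9 against 136.7 and 42.9 CPM. In all these cases library 1 labelled Il9r-/- was far above library 2, and without it the log2 values were 1.16 for Fabp1, 0.66 for Acaa1b and 0.39 for Cidec. Ffar2, a receptor for short-chain fatty acids, stood at 1.29 and 1.90 CPM in WT and at 5.92 and 3.18 CPM in the libraries labelled Il9r-/- (log2 fold change 1.51, SE 0.38, edgeR adjusted p = 0.638). Ffar4, a receptor for long-chain fatty acids, stood at 23.2 and 22.7 against 58.9 and 29.6 CPM, a log2 value of 0.95 (SE 0.31) that did not meet the looser rule. Without library 1 labelled Il9r-/- the log2 value of Ffar4 was 0.37. Markers of AMs stood high in that library too. Over 20 AM markers the summed level was 15600 and 15400 CPM in WT and 24200 and 6320 CPM in the libraries labelled Il9r-/-. The median was 0.48, and by the looser rule 3 markers were higher, beside 1.67% of all genes, and 0 lower. The 3 were Fabp1 and Cidec, counted above among the lipid genes, and Car4. Siglecf, by which AMs were gated, stood at 28.5 and 23.5 CPM in WT, at 65.1 and 34.3 CPM in the libraries labelled Il9r-/-, and at 616 to 686 CPM in AM libraries. The part of AMs in the lipid genes was not tested.

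Genes of the vascular endothelium formed the largest group that was higher in the libraries labelled Il9r-/-. Of 20 endothelial markers, 13 were higher by the looser rule, beside 1.67% of all genes, and 0 were lower. At the adjusted threshold edgeR called 0 of the 20, while DESeq2 called 6 higher, beside 58 of all 14161 genes. For 15 of them the libraries labelled Il9r-/- both lay above both WT libraries, beside 13% of all genes. The median log2 fold change was 2.39, and 18 of 20 were positive, beside 51% of all genes. Cldn5, the claudin of endothelial tight junctions, stood at 2.11 and 1.68 CPM in WT and at 19.99 and 16.7 CPM in the libraries labelled Il9r-/- (log2 fold change 3.27, SE 0.66, edgeR adjusted p = 0.482). Egfl7, a protein secreted by endothelial cells, stood at 1.32 and 2.02 CPM against 21 and 15.9 CPM (log2 fold change 3.47, SE 0.61, edgeR adjusted p = 0.369). Plvap, of the diaphragms of fenestrated vessels, stood at 3.55 and 4.38 against 19.4 and 22.6 CPM, and Tie1, a vascular receptor kinase, at 0.105 and 1.60 against 8.09 and 8.57 CPM. The libraries labelled Il9r-/- were close together for these genes, unlike the lipid genes, while the WT libraries lay apart for Tie1, with 4 reads in library 1 and 42 in library 2. Ramp2, which guides the adrenomedullin receptor to the membrane, stood at 1.95 and 1.83 against 14.5 and 10.8 CPM.

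Not every endothelial marker was higher. Pecam1, Flt1, Eng and Vwf, which had 17.7 CPM or more in each of the 4 libraries, had log2 values from -0.22 to 0.67. Ednrb stood at 62.8 and 63.0 CPM in WT and at 35.8 and 54.7 CPM under the other label. Car4, a carbonic anhydrase that marks capillary endothelium and AMs alike, stood at 138 and 158 CPM in WT and at 765 and 142 CPM in the libraries labelled Il9r-/-, so its difference came from library 1 alone and without it the log2 value was -0.06. Without Car4 the summed level of the list was 208 and 236 CPM in WT and 355 and 384 CPM in the libraries labelled Il9r-/-. With each of the 4 libraries left out in turn, the log2 value ran from 3.19 to 3.80 for Egfl7 and from 3.11 to 3.45 for Cldn5. It ran from 2.38 to 6.25 for Tie1 and from 1.95 to 3.26 for Tek, and each such setting leaves 1 library in a label. The median was 1.39 in CD11c- IMs and 1.00 in AMs. In bulk libraries more endothelial cells and more RNA per cell cannot be told apart, and whether endothelial cells passed the gate was not tested.

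The 15 genes chosen as higher held others outside this list. Tmem100, a membrane protein of endothelial BMP signalling, stood at 1.79 and 2.86 CPM in WT and at 32.1 and 20.9 CPM in the libraries labelled Il9r-/- (log2 fold change 3.52, SE 0.68, edgeR adjusted p = 0.434). Igfbp7 stood at 4.19 and 2.47 against 16.6 and 16.1 CPM, Sdpr, a caveolar protein, at 4.92 and 4.53 against 30.6 and 20.9 CPM, and Ly6c1, a member of the monocyte list, at 2.53 and 2.97 against 18.5 and 15.3 CPM. Sema3c, a guidance factor, and Tek, the angiopoietin receptor, were the 2 of 34 genes of the angiogenic list that met the looser rule. Both were higher, beside 1.67% of all genes, and Tek is also a member of the endothelial list counted above. Vegfa, the main vascular growth factor, stood at 216 and 146 CPM in WT and at 135 and 111 CPM in the libraries labelled Il9r-/-, a log2 value of -0.55 (SE 0.38), and the list median was -0.27.

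**Figure D3:**
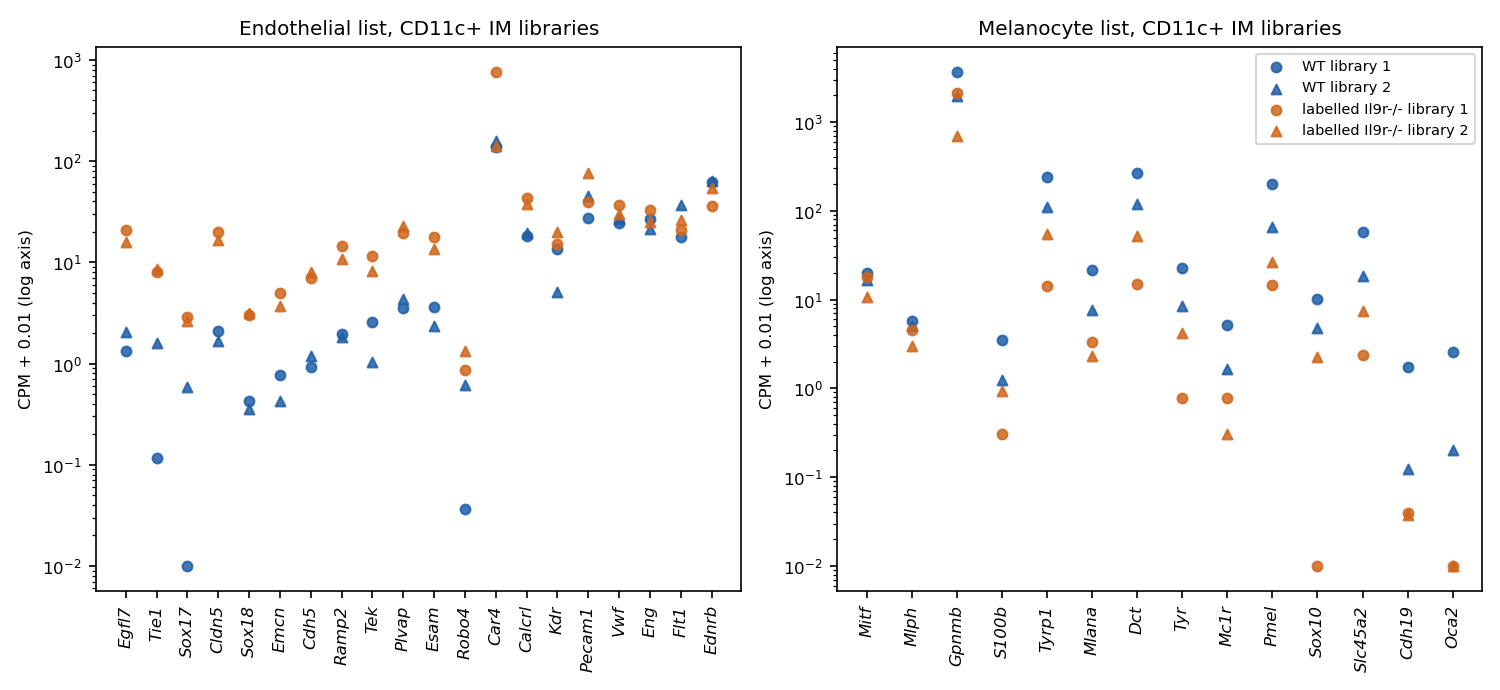
CPM plus 0.01 (y axis, log scale) of each endothelial marker (left) and each melanocyte marker (right) in the 4 CD11c+ IM libraries, with WT in blue, the label Il9r-/- in orange, circles for library 1 and triangles for library 2. Both orange points lie above both blue ones for 15 of 20 endothelial markers, and below them for 12 of 14 melanocyte markers.

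Melanocyte genes, which B16 cells express, were the group with the most members lower. Of 14 markers, 10 were lower by the looser rule, beside 1.56% of all genes, and 0 were higher. At the adjusted threshold edgeR called 0 of the 14, while DESeq2 called 4 lower, beside 31 of all 14161 genes. For 12 of 14 both libraries labelled Il9r-/- lay below both WT libraries, beside 12.3% of all genes, and the median was -2.58. Dct, dopachrome tautomerase of melanin synthesis, stood at 264 and 118 CPM in WT and at 15.2 and 51.8 CPM in the libraries labelled Il9r-/- (log2 fold change -2.51, SE 0.82, unadjusted p = 0.0130, edgeR adjusted p = 0.964). Pmel, the scaffold of melanosomes, stood at 201 and 65.9 CPM against 14.6 and 26.7 CPM, and Tyr, tyrosinase, at 22.5 and 8.53 against 0.762 and 4.16 CPM. WT library 1 was the highest of the 4 for every member that met the rule. Oca2, a melanosomal transporter, had 102 reads over the WT libraries and 0 over the others, at least 37.5-fold lower, but 97 of these reads were in WT library 1 and 5 in WT library 2. Mitf, the melanocyte transcription factor that macrophages also express, stood at 19.8 and 16.8 against 17.9 and 10.8 CPM, and Gpnmb, which macrophages express strongly, at 3686 and 1964 against 2123 and 690 CPM.

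Without Gpnmb the summed level of the melanocyte list was 857 and 359 CPM in WT and 73.8 and 164 CPM in the libraries labelled Il9r-/-. It was far higher in CD11c- IMs, at 9510 and 3670 CPM in WT and at 7970 and 3560 CPM in the libraries labelled Il9r-/-, and there the median log2 fold change was -0.27. In AMs it stood at 364 and 161 against 118 and 95.5 CPM, with a median of -1.44. With each of the 4 CD11c+ IM libraries left out in turn, the log2 value ran from -3.65 to -1.81 for Dct and from -3.29 to -1.67 for Pmel. For Tyr it ran from -4.34 to -1.79, so the size of the difference depended on the library left out. Of these settings, the one without WT library 1 had the fewest list members, and the fewest of all genes, that met the looser rule. Whether tumor cells or their RNA entered the sorted cells was not tested. Slc45a2 and Slc24a5, transporters of melanosomes, were also lower, at 58.3 and 18.3 against 2.34 and 7.35 CPM and at 16.3 and 4.00 against 1.58 and 0.816 CPM. For Fbln5, an elastic fibre protein, and Serpinh1, the collagen chaperone, both WT libraries also lay above both others, with log2 values of -1.95 (SE 0.58) and -1.33 (SE 0.41). Of the 17 fibroblast and smooth muscle markers, 1 was higher and 3 were lower by the looser rule, beside 1.67% and 1.56% of all genes, with a median of -0.28.

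The promoters of the melanin synthesis genes were read from RefSeq (GRCm38.p6). Tyr, Tyrp1 and Dct are textbook targets of MITF through the M-box, a site with the letters TCATGTG. This motif was searched on both strands in the 250 bases before each start. It was present in 4 of the 9 genes of the melanocyte list that had a promoter sequence (Dct, Mc1r, Tyr and Tyrp1). It was found in 0 of 12 endothelial genes, and in 3.72% of all genes with a promoter of that length. Among the autosomal genes tested that had a promoter the share was 2.43%. The motif was chosen for this list, and Dct, Tyr and Tyrp1 were known targets, so the count is no test of it. A match is a description of the letters and not of a bound site. The 160 bases before the start are printed 5′ to 3′ on the strand of the gene, with the M-box or its reverse complement in capitals, for the 3 melanin enzymes and Slc24a5.
Tyr, chr7:87493513-87493672, minus strand: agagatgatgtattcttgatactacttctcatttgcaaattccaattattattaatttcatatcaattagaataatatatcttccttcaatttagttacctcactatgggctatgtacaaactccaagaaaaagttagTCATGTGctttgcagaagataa
Tyrp1, chr4:80834053-80834212, plus strand: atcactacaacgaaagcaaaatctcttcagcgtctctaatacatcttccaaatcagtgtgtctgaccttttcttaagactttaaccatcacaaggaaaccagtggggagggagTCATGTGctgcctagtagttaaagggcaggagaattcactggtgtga
Dct, chr14:118052247-118052406, minus strand: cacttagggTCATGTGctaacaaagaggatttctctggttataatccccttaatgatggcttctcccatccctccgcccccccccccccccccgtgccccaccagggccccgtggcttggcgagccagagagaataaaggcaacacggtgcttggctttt
Slc24a5, chr2:125067967-125068126, plus strand: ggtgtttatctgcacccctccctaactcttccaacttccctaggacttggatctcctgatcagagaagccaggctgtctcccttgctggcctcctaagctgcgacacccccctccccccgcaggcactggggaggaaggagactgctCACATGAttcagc
The motif searched for the comparison of receptor signalling, the STAT site TTCNNNGAA, was present in 9 of the 97 named genes with a promoter, Ifit2 among them (9.28%), and in 8.13% of all genes with a promoter. The AP-1 site TGACTCA was present in 8 of the 97 named genes, Il6 and Cidec among them (8.25%), and in 5.16% of all genes with a promoter.

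Markers of other cells gave smaller differences. All 14 dendritic cell markers had positive values, beside 51% of all genes, with a median of 0.94. Their summed level was 808 and 2180 CPM in WT and 1700 and 3690 CPM in the libraries labelled Il9r-/-. The numbers 1 and 2 thus lay further apart than the labels. Zbtb46, a transcription factor of dendritic cells, stood at 11.2 and 23.8 against 22.1 and 55.9 CPM and met the looser rule, as did Cacnb3. Of 20 lung epithelium markers, 3 were higher (Sftpc, Sftpa1 and Ager) and 2 lower (Krt8 and Krt18) by the looser rule, beside 1.67% and 1.56% of all genes. Krt8, a keratin, stood at 12.5 and 0.647 CPM in WT and at 0.322 and 1.17 CPM in the libraries labelled Il9r-/-, and without WT library 1 its log2 value was 0.21. Sftpc, a surfactant protein of type II epithelium, stood at 4.42 and 12.2 CPM in WT and at 9.44 and 139 CPM in the libraries labelled Il9r-/-, and without library 2 labelled Il9r-/- its log2 value was 0.19. Neutrophil genes lay further apart by library number than by label, with S100a8 at 54.7 and 300 CPM in WT and at 129 and 523 CPM under the other label. Of 11 neutrophil genes tested 9 had positive values, beside 51% of all genes, with a median of 0.82 and 0 past the looser rule. T, NK and B cell markers held 0 members that met the looser rule. The 20 markers of interstitial macrophages had a median of -0.35, with 0 past the looser rule. Of these 20, 17 had negative values and 3 positive ones, beside 51% of all genes with a positive value. For 5 of them both libraries labelled Il9r-/- lay below both WT libraries, beside 12.3% of all genes, and for 0 above.

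The interferon response list held 2 of 32 genes lower by the looser rule, beside 1.56% of all genes, and 0 higher, with a median of -0.43. Ifit2, an antiviral protein that binds RNA, stood at 78 and 56.7 CPM in WT and at 13.8 and 26.9 CPM in the libraries labelled Il9r-/- (log2 fold change -1.73, SE 0.56, unadjusted p = 0.0126, edgeR adjusted p = 0.963). Ifit3 stood at 104 and 67.5 against 22.8 and 37.1 CPM. Irf7, a transcription factor of this response, overlapped between the labels, at 213 and 169 CPM in WT and at 69.6 and 196 CPM in the libraries labelled Il9r-/-. Library 1 labelled Il9r-/- was the lowest of the 4 for all of these genes. The list median was -1.16 in AMs and 0.09 in CD11c- IMs.

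Among genes of glycolysis and hypoxia, 0 of 26 met the looser rule or the adjusted threshold. Positive values were held by 3 of them, beside 51% of all genes. For 15 of 26 both libraries labelled Il9r-/- lay below both WT libraries, beside 12.3% of all genes, and the median was -0.35. Ldha, lactate dehydrogenase, stood at 1687 and 1399 CPM in WT and at 1300 and 1108 CPM in the libraries labelled Il9r-/- (log2 fold change -0.36, SE 0.26). Ero1l, an oxidase of the endoplasmic reticulum that hypoxia induces, stood at 127 and 116 against 73.8 and 76.5 CPM (log2 fold change -0.70, SE 0.18, unadjusted p = 0.00393, edgeR adjusted p = 0.709). Slc2a1, the glucose transporter GLUT1, stood at 173 and 174 against 109 and 133 CPM. Hif1a, the hypoxia transcription factor, stood at 234 and 194 against 246 and 184 CPM. The 33 genes of oxidative phosphorylation had a median of -0.09, with 2 positive values, beside 51% of all genes. Of these 33 genes 0 were without overlap, beside 25.3% of all genes. Vdac1, the main channel of the outer mitochondrial membrane, was lower in both libraries labelled Il9r-/-, at 71.6 and 81.3 CPM in WT against 38.2 and 43.9 CPM (log2 fold change -0.90, SE 0.18, edgeR adjusted p = 0.482).

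The JAK-STAT genes of the receptor's pathway gave small differences. Of 27 genes, 0 met the looser rule or the adjusted threshold, and the median was 0.06. Jak1 and Jak3, the kinases of the IL-9 receptor, stood at 366 and 499 CPM and at 56.1 and 63.7 CPM in WT, and at 403 and 502 CPM and 63.8 and 91.7 CPM in the libraries labelled Il9r-/-. Stat3 stood at 329 and 445 against 371 and 548 CPM. Among the feedback inhibitors that STATs induce, Socs2 stood at 41.5 and 34.3 CPM in WT and at 64.2 and 58.7 CPM in the libraries labelled Il9r-/- (log2 fold change 0.70, SE 0.28, unadjusted p = 0.0313, edgeR adjusted p = 1), and Socs3 and Cish differed by -0.24 (SE 0.27) and 0.01 (SE 0.26) on the log2 scale. Il6 stood at 29.8 and 32.2 against 32.7 and 34.7 CPM, a log2 difference of 0.12 (SE 0.29). Cxcl1, a chemokine for neutrophils, stood at 86.2 and 87.8 against 70.6 and 46.5 CPM, a log2 difference of -0.57 (SE 0.33). Of 25 inflammatory genes 0 met the looser rule. Cxcl15, an epithelial chemokine, had no more than 0.316 CPM in 3 libraries and 2.26 CPM in library 2 labelled Il9r-/-, and Acvr1c had 26 reads over the WT libraries, 23 of them in library 1, and 1 read over the others, a ratio of 28.7 (exact interval for counting error at 95% from 4.71 to 1180).

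**Figure D4:**
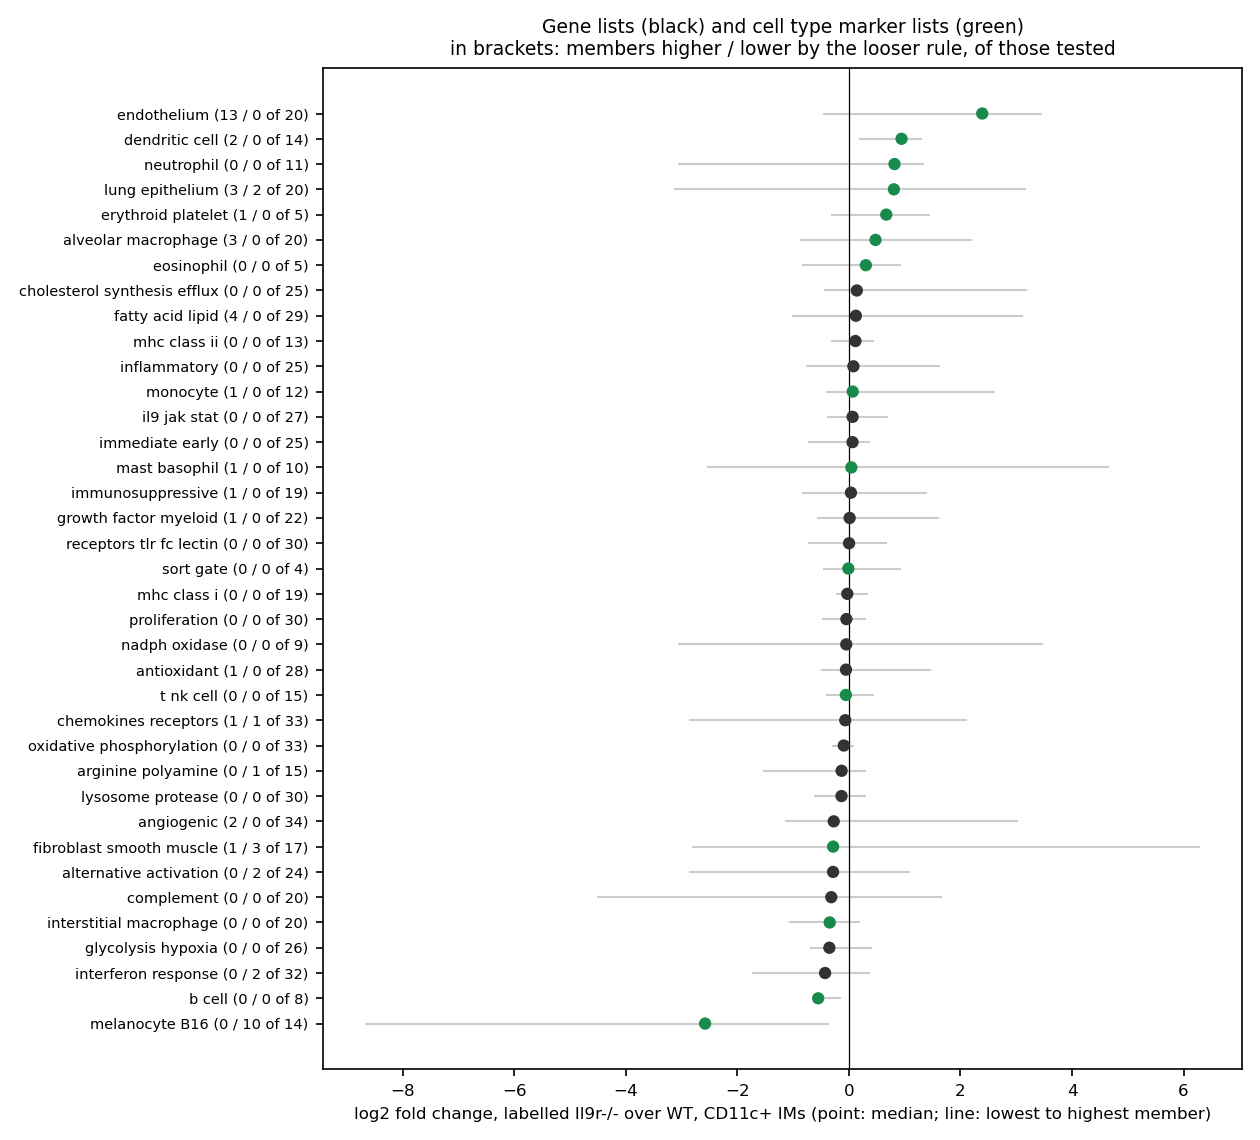
Median log2 fold change (point) and range from the lowest to the highest member (line) of 22 gene lists (black) and 15 cell type marker lists (green) in CD11c+ IMs, libraries labelled Il9r-/- over WT, with the number of members higher and lower by the looser rule of those tested in brackets. The endothelial list at 2.39 and the melanocyte list at -2.58 lie farthest from the median of all genes, drawn as a vertical line.

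The difference between labels was itself compared between populations. Against CD11c- IMs, 0 genes differed at an adjusted p under 0.05 in edgeR and 217 (1.53%) at an unadjusted p under 0.05, and DESeq2 called 2, Dynlt1b and Fgf1. Against AMs, 0 genes differed in edgeR and 398 (2.81%) at an unadjusted p under 0.05, and DESeq2 called 18. Against AMs the gene of smallest p was Fgf1 (edgeR adjusted p = 0.492), and H2-Aa, Cd74 and H2-Ab1 of antigen presentation were among the next 6. H2-Aa, the alpha chain of this molecule, stood at 2945 and 3583 CPM in WT CD11c+ IMs and at 2848 and 4224 CPM in the libraries labelled Il9r-/-, a log2 difference of 0.12 (SE 0.25), against -2.03 in AMs. Cd74, the invariant chain, differed by 0.13 (SE 0.25) in CD11c+ IMs and by -1.86 in AMs. The differences between the populations had an edgeR adjusted p of 0.613 for both genes, and both were among the 18 genes of DESeq2.

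Of the 15 higher genes chosen on CD11c+ IMs, all 15 were positive in CD11c- IMs and in AMs as well, beside 50.5% and 48.5% of all genes, with medians of 1.20 and 1.54 against 2.62 in CD11c+ IMs, and 9 of 15 met the looser rule in each, beside 0.798% and 0.741% of all genes. Of the 15 lower genes, 13 were negative in CD11c- IMs and 14 in AMs, with medians of -0.27 and -1.55 against -2.51, and 2 and 7 of them met the looser rule, beside 0.198% and 2.03% of all genes. The genes were chosen for their values in CD11c+ IMs, and the labels do not say whether libraries of 1 number came from the same mice. WT library 1 also differed in sex in the other populations, with Xist at 27.0 CPM in AMs and 12.5 CPM in CD11c- IMs. Ddx3y stood there at 0.164 and 0.257 CPM, so the 3 comparisons share this difference and are not separate replications. Egfl7, Cldn5, Ramp2 and Plvap of the higher genes are also members of the endothelial list counted above. Clec1b, a C-type lectin of platelets and myeloid cells, had opposite signs in the interstitial populations. It stood at 13.6 and 8.76 CPM in WT CD11c+ IMs and at 5.48 and 4.03 CPM in the libraries labelled Il9r-/- (log2 fold change -1.24), while the log2 fold change was 0.72 in CD11c- IMs, a difference with an unadjusted p of 0.0017 and an edgeR adjusted p of 1.

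**Figure D5:**
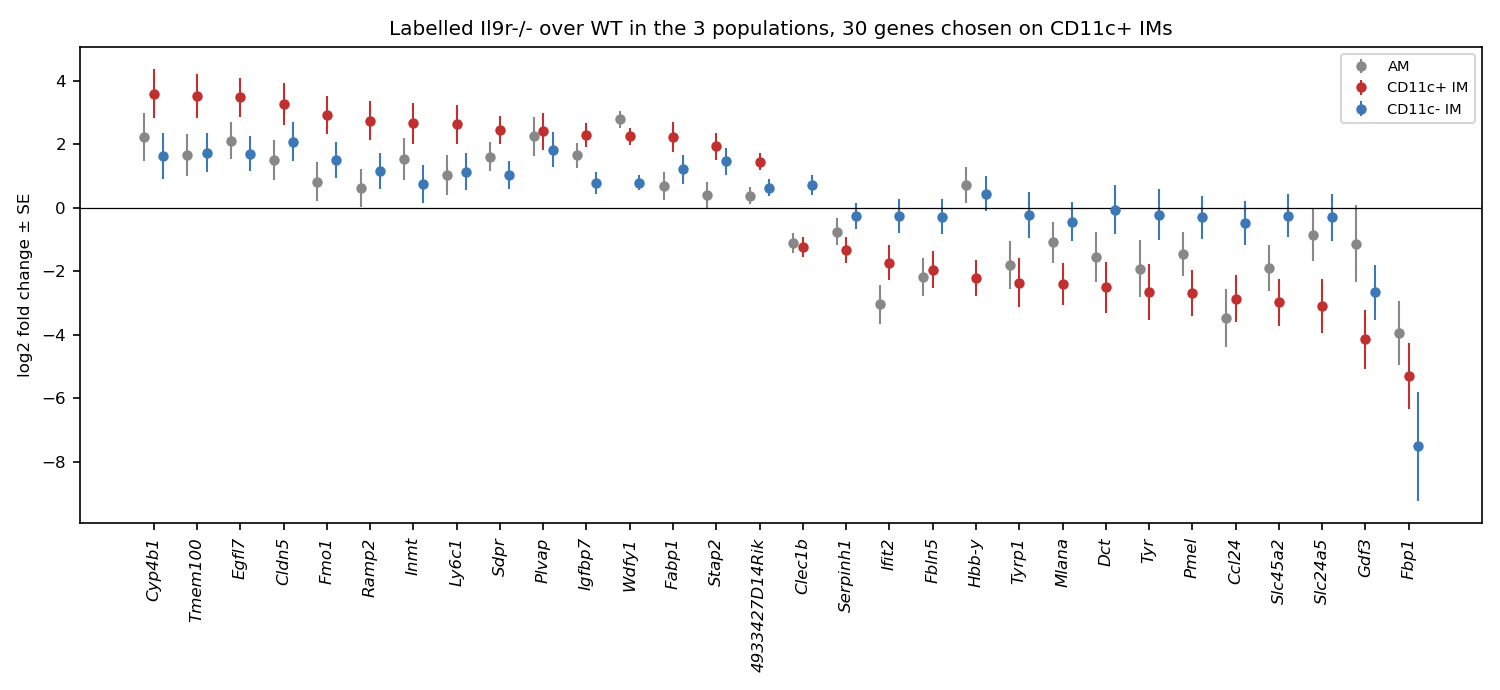
Log2 fold change of libraries labelled Il9r-/- over WT, with its SE as a bar, for the 30 genes chosen on CD11c+ IMs (red) and the same genes in AMs (grey) and CD11c- IMs (blue). The 15 higher genes are positive in all 3 populations, while the melanocyte genes lie near 0 in CD11c- IMs.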

How the data were processed

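Polyadenylated RNA of sorted macrophages was sequenced after cDNA amplification. Per the labels and the study's methods, the authors aligned reads with STAR 2.5 to mm10 and deposited raw counts of uniquely mapped reads per refGene gene (featureCounts, Subread 1.5.1), summed over exons and with a strand setting, although the kit does not mark strand, so overlapping and antisense genes are uncertain. The authors also deposited log2 FPKM values, used only for mean levels per length, and columns of their own fold changes, p-values and false discovery rates, which were not used. The headings of their comparisons between WT populations exchange the names CD11c+ IM and CD11c- IM relative to the library titles, while those between genotypes follow the titles, as was done here. Genes of low counts had already been removed: a filter of 0.5 CPM in 2 libraries kept 14648 of 14648 genes.

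Here the counts of all 12 libraries were fitted as 6 groups with edgeR 4.0.16 (R 4.3.3, TMM scaling, robust quasi-likelihood), and p-values were adjusted by Benjamini-Hochberg over all 14648 genes, before genes of chromosomes X and Y were left out. Each value rests on 2 libraries a label. DESeq2 1.42.0, RLE scaling, filters, the 4 libraries alone, a replicate block and leaving out libraries were tried as alternatives. Promoters came from RefSeq tables of GRCm38.p6.

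Gene lists, marker lists and named genes were chosen with earlier results of these data known. Named genes were Il9r, Arg1, Nnt, Ffar2, Ffar4, Acvr1c, Cxcl1, Cxcl15, Il6 and the sort genes, the 15 genes in each direction with the smallest p among those that met the looser rule without overlap at 10 CPM or more, list members that met a rule, the most abundant list members, and genes of lowest p in the comparisons between populations. Other genes were named after their values were seen. Intervals and bounds against a group at 0 reads (3 reads over the group) cover counting error only.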

Additional observations from a re-analysis of the deposited data

How the results depend on the processing

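The single gene at an adjusted p under 0.05 in edgeR became 89 in DESeq2, 0 with only the 4 CD11c+ IM libraries, and 0 to 0 when each library was left out. An alternative chosen after seeing the data, without the 3 WT libraries numbered 1, also gave 0. The 458 genes of the looser rule became 112 under the stricter filter of 5 CPM in 2 libraries, which tests fewer genes, 293 with only the 4 libraries, 227 without the 3 WT libraries numbered 1, and 264 to 705 when each library was left out. Without WT library 1, 185 genes were shared with the 458. For the comparisons between populations DESeq2 gave 2 genes against CD11c- IMs and 18 against AMs where edgeR gave 0 and 0, and neither could be fitted with the 4 libraries alone. The log2 fold change of Il9r was 3.73 in DESeq2 as well, where it passed the adjusted threshold. The cause of these differences was not tested.

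The labels share replicate numbers, and deviations of same-numbered CD11c+ IM libraries correlated at 0.261 between the labels, from 2 pairs, which share only a number. With the replicate block, 2 genes passed (Wdfy1 at an edgeR adjusted p of 0.00314 and Dynlt1b at 0.0319) and 474 met the looser rule.

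The settings were run on 62 genes besides Il9r, and not on every named gene, and 58 of these kept their direction in all 13 settings. The 4 exceptions were Itgax (-0.33 to 0.21 when each library was left out, 0.15 without the 3 WT libraries numbered 1), Mertk (-0.18 with the replicate block, -1.13 to 0.64 with each library left out), Car4 (-0.061 to 2.37) and Krt8 (-4.34 to 0.21, and 0.21 without the 3 WT libraries numbered 1). Values that rest on 3 reads or fewer in a library, as for Dynlt1b, Acvr1c and Oca2, are limited by depth, and all values by 2 libraries a label.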
